A study of Mus musculus with 24 samples.

Results

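The difference in hippocampal transcript levels between CBP-ifKO and control mice, averaged over both housings, was measured by comparing all 6 CBP-ifKO mice with all 6 control mice, with housing as a covariate. The libraries were chosen by their genotype and housing labels only, and they are the 12 mice of the series. Of the 55471 genes in the count table, 18251 passed edgeR's expression filter and are described here. The mice were females of the C57BL/6 strain as labelled, C57BL/6J in the study's methods, 3 to 6 months old, in 4 groups of 3, which were controls in standard cages (SC), CBP-ifKOs in SC, controls in environmental enrichment (EE), and CBP-ifKOs in EE. The hippocampus of each mouse gave 1 library, sequenced in 2 runs that were merged. CBP-ifKOs carry floxed Crebbp alleles and a creERT2 recombinase under the Camk2a promoter, which is active in excitatory neurons of the forebrain. Controls were littermates without the creERT2 transgene, and all groups received 5 administrations of tamoxifen. The presence of the transgene and the loss of CBP therefore cannot be told apart within these groups. The recombined allele still yields a truncated CBP protein that lacks the acetyltransferase domain, and the hippocampus also holds cells in which the driver is not expected. Values come from whole hippocampus, where fewer cells of a type and less RNA per cell cannot be told apart.

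CBP is a transcriptional coactivator and a lysine acetyltransferase. It is recruited to enhancers and promoters by factors such as CREB, and it acetylates histones and other proteins there. In excitatory neurons of the adult hippocampus it is known for its part in activity-dependent transcription, synaptic plasticity and memory. Its paralog p300 shares most of its domains.

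The control libraries held between 26874015 and 27971488 counts and the CBP-ifKO libraries between 28582210 and 37448388. The CBP-ifKO libraries held even counts only, and between 54.0% and 55.1% of the nonzero counts of the control libraries were odd. The counts of calls, the gene lists and the named genes were therefore also computed with the CBP-ifKO counts divided by 2. Even counts and genotype coincide in every library. A difference in how these columns were counted cannot be told apart from genotype, and it would be shared by both housings. Dividing by 2 does not remove it. A total of 3 counts corresponded to between 0.0801 and 0.112 CPM, a limit that covers counting error only. No gene holds 3 counts in the CBP-ifKO libraries, whose counts are even. If reads were counted more than once there, the totals overstate the reads and this limit is too low, which was not tested. Fewer genes had nonzero counts in the CBP-ifKO libraries (23843 to 25225) than in the control libraries (25981 to 26608). Levels are given in CPM, counts scaled by edgeR to library size after TMM normalization, which do not correct for gene length and are compared between mice and not between genes. The summed level of 13 choroid plexus markers was 1338 CPM in control EE replicate 1 and between 42.4 and 74.0 CPM in the other 11 libraries, so that library stood apart and results are also given without it. A log2 fold change below 0 means a lower level in CBP-ifKOs, and a gene was called when its adjusted p (edgeR's quasi-likelihood test with Benjamini-Hochberg adjustment) was below 0.05, without a fold threshold. Each library is a separate mouse, and p-values measure the spread between mice.

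Crebbp, the deleted gene, is located at chromosome 16 from 4081328 to 4213997 (GRCm38, as are all positions here). Its level was between 69.6 and 81.9 CPM in the 6 control mice (median 73.1) and between 44.5 and 51.6 CPM in the 6 CBP-ifKOs (median 49.2). The genotypes did not overlap, and the log2 fold change was -0.61 (SE 0.04, adjusted p = 1.25e-07), with -0.58 in SC and -0.64 in EE. Ep300, which encodes p300, was between 55.8 and 85.3 CPM in the 6 control mice (median 64.7) and between 67.7 and 80.4 CPM in the 6 CBP-ifKOs (median 76.6). Its ranges overlapped, and its log2 fold change of 0.12 (SE 0.09, adjusted p = 0.393) did not pass the test. Esr1, whose coding sequence contributes the ligand-binding part of creERT2, was between 3.47 and 5.82 CPM in the 6 control mice (median 4.43) and between 67.0 and 81.7 CPM in the 6 CBP-ifKOs (median 76.4), a log2 fold change of 4.04 (SE 0.09, adjusted p = 3.16e-14). Arsi, which lies near Camk2a and is known as a gene related to the driver, was between 0.698 and 1.23 CPM in the 6 control mice (median 1.15) and between 5.03 and 8.19 CPM in the 6 CBP-ifKOs (median 6.66), a log2 fold change of 2.62 (SE 0.15, adjusted p = 2.15e-08). Camk2a itself, the gene whose promoter drives the transgene, had a log2 fold change of -0.04 (SE 0.04, adjusted p = 0.61) and overlapping genotypes. The driver-related genes Esr1 and Arsi were called higher in each housing as well, and Camk2a was not called in either.

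Over the 12 mice, 3238 genes were called, which is 17.7% of those tested. Of these, 1305 (7.15% of the genes tested) were higher in CBP-ifKOs and 1933 (10.6%) were lower. The 6 SC mice alone gave 968 calls (5.52% of 17532 genes tested) and the 6 EE mice alone 805 (4.57% of 17625). Of the 3238 genes, 2017 were called in neither housing alone, which is 11.1% of the genes tested and 62.3% of the calls. These 2017 comprised 974 higher and 1043 lower genes, or 74.6% of all higher and 54.0% of all lower calls. In the other direction, 59 of the 1280 genes called in SC or in EE were not called over the 12 mice. The 12-mouse test contains the mice of both others, so the overlap of calls is a description and not a replication.

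The changes were small. The median absolute log2 fold change was 0.25 over the 3238 called genes and 0.20 over the 2017 genes called in 12 mice only, of which 1799 (89.2%) were below 0.5. Among called genes whose change lay between 0.1 and 0.2, 1014 of 1068 (94.9%) were called in 12 mice only. Between 0.2 and 0.3 this was 517 of 915 (56.5%), and between 0.3 and 0.5 it was 263 of 729 (36.1%). The share did not fall further, with 164 of 398 (41.2%) between 0.5 and 1. Called changes of 1 or more were few, 123 genes, and 54 of them (43.9%) were called in 12 mice only. Over all genes tested the median log2 fold change was 0.003, with quartiles of -0.13 and 0.11.

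**Figure D1:**
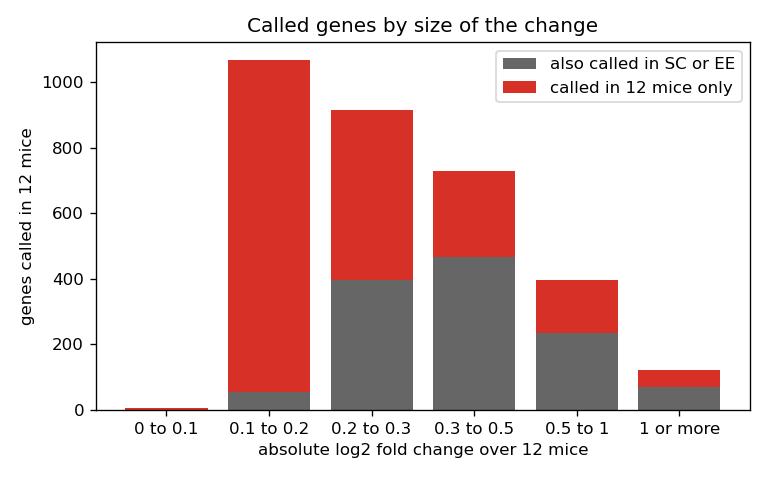
Number of genes called between 6 CBP-ifKOs and 6 controls (y axis) by absolute log2 fold change (x axis), split into genes also called in SC or in EE alone (grey) and genes called in 12 mice only (red). Between 0.1 and 0.2, 1014 of the 1068 called genes were called in 12 mice only.

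The single-housing counts depended on single mice more than the 12-mouse count did. When each mouse was left out in turn, the 12-mouse count ranged from 2616 to 3549. The SC count moved by over 1.5 times with each of its 6 mice left out. It was 637, 1908 and 435 without control SC replicates 1, 2 and 3, and 404, 399 and 433 without CBP-ifKO SC replicates 1, 2 and 3. The EE count fell to 285 without control EE replicate 3, and to 431, 447 and 286 without CBP-ifKO EE replicates 1, 2 and 3. The number of genes called in 12 mice only ranged from 1376, without control SC replicate 2, to 2159. Without control EE replicate 1 it was 1495, and with the CBP-ifKO counts divided by 2 it was 1963.

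The genotype change was compared between housings with the interaction of genotype and housing. edgeR called 0 of 18251 genes, DESeq2 also called 0, edgeR without an expression filter called 110, and 574 genes (3.15%) had an unadjusted p below 0.05 in edgeR, with a smallest adjusted p of 0.9998. The design gives this test 3 mice per group, and an interaction that misses the threshold does not show that the housings were alike. The values of the housings are therefore given side by side. Of the 965 SC calls also tested in EE, 956 had the same sign there, and 816 of these had an unadjusted p below 0.05. Their median absolute log2 fold change was 0.37 in SC and, along the sign in SC, 0.33 in EE. Of the 802 EE calls tested in SC, 792 had the same sign and 714 of these an unadjusted p below 0.05, with medians of 0.41 in EE and 0.33 in SC. The SC and EE mice are separate animals, and of the calls of either housing none had the opposite sign with an unadjusted p below 0.05 in the other. Over the 17250 genes tested in both, 72.0% had the same sign, and the correlation of log2 fold changes across genes, which are not independent replicates, was 0.48.

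**Figure D2:**
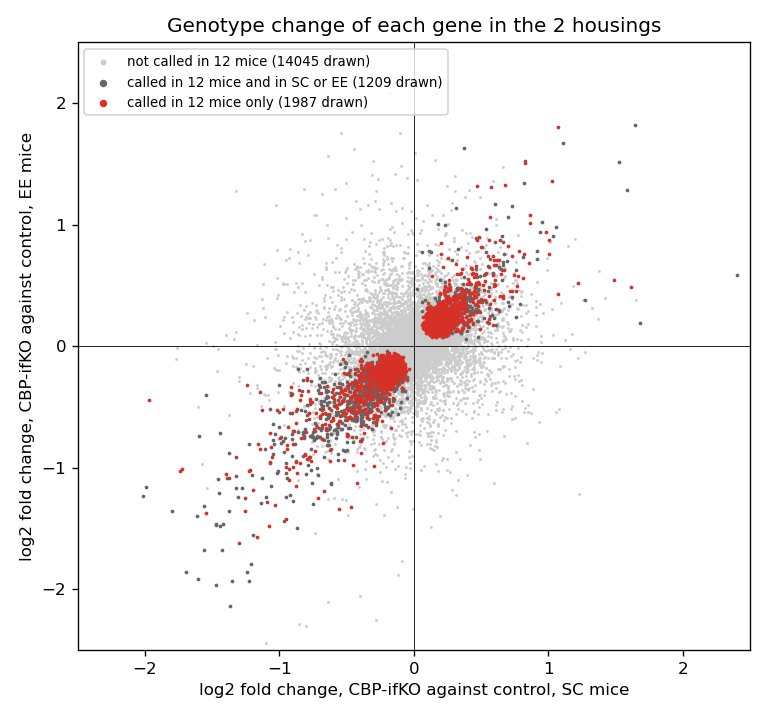
Log2 fold change between genotypes in the SC mice (x axis) and in the EE mice (y axis), 1 point per gene, for genes not called (light grey), called in 12 mice and in SC or EE (dark grey), and called in 12 mice only (red). The 1987 genes called in 12 mice only and tested in both housings had the same sign in both, which the 12-mouse call favors, and 9 genes lie outside the axes.

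The lower genes with the smallest p-values were Rgs14, Thbs3, Tesc, C1ql2, Car12, Rin1, Sept9 and Kcnip3. Rgs14, a regulator of G protein signaling that is enriched in CA2 pyramidal cells, lies on chromosome 13 from 55369732 to 55384687. It was between 106 and 126 CPM in the 6 control mice (median 116) and between 44.7 and 54.6 CPM in the 6 CBP-ifKOs (median 51.4). Its log2 fold change was -1.18 (SE 0.05, adjusted p = 9.77e-10), with -1.10 in SC and -1.24 in EE. C1ql2, a secreted C1q-like synaptic organizer of dentate granule cells on chromosome 1 from 120340582 to 120343174, was between 56.2 and 76.7 CPM in the 6 control mice (median 63.6) and between 14.7 and 25.6 CPM in the 6 CBP-ifKOs (median 18.0). Every control mouse was above every CBP-ifKO, and the log2 fold change was -1.76 (SE 0.10, adjusted p = 2.15e-08), with -1.60 in SC and -1.91 in EE. Thbs3, a thrombospondin of the extracellular matrix, had a log2 fold change of -1.11, and Car12, a membrane-bound carbonic anhydrase, one of -1.11. Tesc, a calcium-binding protein also known as tescalcin, was between 29.7 and 35.4 CPM in the 6 control mice (median 30.4) and between 13.4 and 16.4 CPM in the 6 CBP-ifKOs (median 15.2), a log2 fold change of -1.03 (SE 0.06, adjusted p = 2.15e-08). Kcnip3, a calcium sensor that modulates Kv4 potassium channels and is also known as DREAM, was between 98.6 and 108 CPM in the 6 control mice (median 104) and between 57.6 and 68.5 CPM in the 6 CBP-ifKOs (median 64.8), a log2 fold change of -0.69 (SE 0.04, adjusted p = 4.60e-08). The remaining lower genes of this set were Rin1, a Ras effector (-0.66), and Sept9, a septin of the cytoskeleton (-0.75). All 8 were called lower in each housing alone. Thbs3 shares exonic sequence with Mtx1 on the opposite strand.

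Apart from Esr1 and Arsi, the higher genes with the smallest p-values, chosen by the same rule of no overlap, changed less. Camk2n2, an inhibitor of CaMKII, lies on chromosome 16 from 20619215 to 20621287 and was between 38.5 and 46.3 CPM in the 6 control mice (median 43.5) and between 55.5 and 62.1 CPM in the 6 CBP-ifKOs (median 59.5). The genotypes did not overlap in either housing, and the log2 fold change was 0.46 (SE 0.05, adjusted p = 5.53e-06), with 0.43 in SC and 0.51 in EE. Shd, an adaptor protein with an SH2 domain, was between 13.3 and 16.9 CPM in controls and between 24.0 and 25.7 CPM in CBP-ifKOs, and its log2 fold change was 0.69 (SE 0.06, adjusted p = 1.31e-06). Cast, which encodes the calpain inhibitor calpastatin and shares exonic sequence with Erap1 on the opposite strand, had a log2 fold change of 0.77. Tfr2, a transferrin receptor, had one of 0.71, Cchcr1, a coiled-coil protein, one of 0.96, and Fam229b one of 0.55. These 6 genes were called higher in each housing alone.

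The genes called in 12 mice only with a change below 0.5 are described first by the higher genes with the smallest p-values. Srsf6, a splicing factor of the SR family, lies on chromosome 2 from 162931528 to 162937121 and was between 185 and 203 CPM in the 6 control mice (median 197) and between 212 and 235 CPM in the 6 CBP-ifKOs (median 226). The genotypes did not overlap, although the log2 fold change was only 0.20 (SE 0.03, adjusted p = 7.26e-04), and the adjusted p was 0.0573 in SC and 0.0626 in EE. Rbm4b, an RNA-binding protein of splicing, was between 40.2 and 42.8 CPM in the 6 control mice (median 41.4) and between 46.4 and 48.5 CPM in the 6 CBP-ifKOs (median 47.2), a log2 fold change of 0.19 (SE 0.03, adjusted p = 8.45e-04) with adjusted p-values of 0.121 in SC and 0.0503 in EE. Its exons overlap Gm37206 on the opposite strand. Abcf3, an ABC-family ATPase linked to translation, was between 67.9 and 73.7 CPM in the 6 control mice (median 72.4) and between 78.4 and 83.2 CPM in the 6 CBP-ifKOs (median 82.3), a log2 fold change of 0.19 (SE 0.03, adjusted p = 7.23e-04). Riok2, a kinase of ribosome maturation, rose by 0.24, Gatad2a, a subunit of the NuRD chromatin complex, by 0.24, and Zfp386, a zinc-finger protein, by 0.23. Ginm1, Tspan6 and Pced1a, with changes of 0.28, 0.31 and 0.26, complete the 9 described here. Exons of Ginm1, Riok2 and Pced1a overlap B430219N15Rik, Gm26873 and Vps16 on the opposite strand. In all 9 the CPM ranges of the 6 mice per genotype did not overlap, which held for 8.56% of all genes tested and for 652 of the 2017 genes called in 12 mice only. The choice by smallest p in the same mice favors such separation, so it is not further evidence.

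The lower genes of this kind with the smallest p-values follow. Pacsin1, a neuronal adaptor of endocytosis, lies on chromosome 17 from 27655509 to 27711482 and was between 403 and 439.7 CPM in the 6 control mice (median 416) and between 347 and 388 CPM in the 6 CBP-ifKOs (median 361). All control mice were above all CBP-ifKOs, and the log2 fold change was -0.20 (SE 0.03, adjusted p = 8.15e-04), with -0.19 in SC and -0.20 in EE and adjusted p-values of 0.0716 in SC and 0.0693 in EE. Cdk14, a cyclin-dependent kinase of Wnt signaling, was between 301 and 329.9 CPM in the 6 control mice (median 307) and between 266 and 281 CPM in the 6 CBP-ifKOs (median 273), a log2 fold change of -0.19 (SE 0.03, adjusted p = 8.22e-04). Serpine2, a secreted serine protease inhibitor, was between 174 and 186 CPM in the 6 control mice (median 178) and between 148 and 166 CPM in the 6 CBP-ifKOs (median 158), a log2 fold change of -0.19 (SE 0.03, adjusted p = 8.42e-04). Fut8, which adds core fucose to N-glycans and shares exonic sequence with 9530018F02Rik on the opposite strand, changed by -0.19, and Uxs1, which makes UDP-xylose for proteoglycans, by -0.25. Irf2bpl, Zfp385b, Mipep, Bzw2 and Tex2 changed by -0.24, -0.23, -0.21, -0.21 and -0.20, and exons of Mipep overlap Mipepos on the opposite strand. The genotypes did not overlap in 9 of these 10 genes, with Uxs1 as the exception, and the choice by smallest p favors this too. The call of each of these 19 genes held under every alternative run, and their lowest adjusted p in either housing alone was 0.0503.

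**Figure D3:**
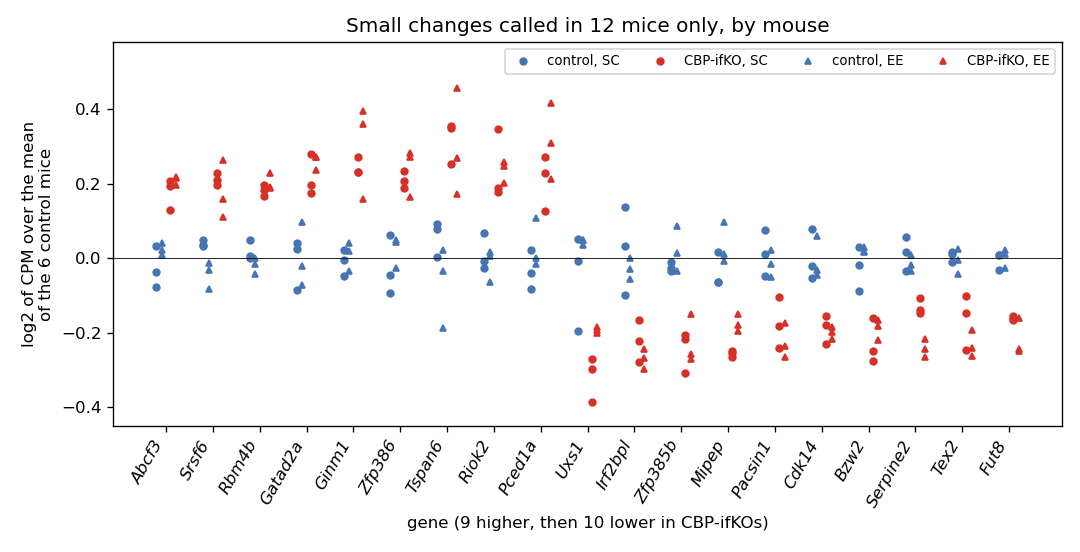
Level of 19 genes in each of 12 mice as log2 of CPM over the mean of the 6 control mice (y axis), with genes on the x axis, controls in blue, CBP-ifKOs in red, SC as circles and EE as triangles. The points span -0.386 to 0.457, and blue and red points overlap for Uxs1 only.

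At the lower limit of what 12 mice could call stood changes of about 0.1. Serinc1, a membrane protein that incorporates serine into lipids, was between 1239.5 and 1346 CPM in the 6 control mice (median 1283) and between 1344 and 1406 CPM in the 6 CBP-ifKOs (median 1384), a log2 fold change of 0.10 (SE 0.03, adjusted p = 0.0344). Snrnp70, a component of the U1 splicing particle, was between 429 and 447 CPM in the 6 control mice (median 436) and between 447 and 498 CPM in the 6 CBP-ifKOs (median 472), a log2 fold change of 0.10 (SE 0.03, adjusted p = 0.0343). Among the lower genes, Gpm6a, a neuronal membrane glycoprotein, was between 1751 and 1912 CPM in the 6 control mice (median 1820.1) and between 1625 and 1752 CPM in the 6 CBP-ifKOs (median 1729.5), a log2 fold change of -0.10 (SE 0.03, adjusted p = 0.043). Osbpl2 had a log2 fold change of 0.10, Hspa9 one of -0.10, and Ppp2ca, whose exons overlap 9430098F02Rik and Gm24157 on the opposite strand, one of -0.09. The call of each of these 6 genes was lost under at least 10 of the 24 alternatives.

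Gene lists were described by the share of their members called, read against the 10.6% of all genes called lower and the 7.15% called higher. The lists were chosen with results of these mice known, so their directions are not independent evidence. Of 48 lists, 31 had lower calls and no higher call, and 42 had a larger share of lower calls than all genes. Exceeding 10.6% therefore sets few lists apart. Of the most abundant of 5 groups of genes ranked by mean CPM, 23.9% were called lower, so 10.6% is a low reference for abundant genes. The largest shares of lower calls were those of postsynaptic scaffolds (76.5%), calmodulin and its kinases (64.7%) and neurotrophins and their receptors (57.1%).

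Ion channels set the firing pattern of hippocampal neurons. Of 54 potassium channel genes and their subunits, 29 were lower and 0 higher, with a median log2 fold change of -0.20 over the list, and 12 of the 29 were called in 12 mice only. Without control EE replicate 1, 25 were lower. Kcnip2, which like Kcnip3 is a subunit of Kv4 channels, was between 231 and 262 CPM in the 6 control mice (median 251) and between 165 and 185 CPM in the 6 CBP-ifKOs (median 177), a log2 fold change of -0.50 (SE 0.04, adjusted p = 2.72e-07). Kcnh3, an ether-a-go-go channel whose exons overlap Mcrs1 on the opposite strand, changed by -0.45. Of 29 voltage-gated sodium and calcium channel genes, 15 were lower and 0 higher, with a median of -0.16. Cacna1g, a T-type calcium channel, was between 87.0 and 114 CPM in the 6 control mice (median 98.0) and between 49.3 and 68.9 CPM in the 6 CBP-ifKOs (median 59.8), a log2 fold change of -0.74 (SE 0.07, adjusted p = 1.99e-06), with -0.62 in SC and -0.85 in EE. Scn3b, a sodium channel beta subunit, changed by -0.33.

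Many genes of neurotransmitter receptors were lower by small amounts. Of 25 monoamine and muscarinic receptor genes, 14 were lower and 0 higher, and 9 of the 14 were called in 12 mice only. Their median log2 fold change was -0.24. Htr1a, an inhibitory serotonin receptor, was between 37.8 and 49.1 CPM in the 6 control mice (median 40.9) and between 23.2 and 34.8 CPM in the 6 CBP-ifKOs (median 27.9), a log2 fold change of -0.56 (SE 0.07, adjusted p = 5.93e-05), with -0.57 in SC and -0.54 in EE. Htr5b was between 6.72 and 8.97 CPM in the 6 control mice (median 7.50) and between 3.83 and 6.56 CPM in the 6 CBP-ifKOs (median 4.82), a log2 fold change of -0.65 (SE 0.12, adjusted p = 0.00112). Its change was -0.92 in SC and -0.38 in EE, and the interaction had an unadjusted p of 0.0216 and an adjusted p of 0.9998 in edgeR. Of 23 neuropeptide receptor genes, 11 were lower and 0 higher, with a median of -0.29, and all 23 log2 fold changes were below 0. Sstr3, a somatostatin receptor of neuronal cilia, changed by -0.62, and Npy5r, a neuropeptide Y receptor called in 12 mice only, by -0.28. Among 15 ionotropic glutamate receptor subunits 7 were lower and 0 higher, 6 of them in 12 mice only. Gria3, an AMPA receptor subunit, was between 275 and 362 CPM in the 6 control mice (median 294) and between 241 and 269 CPM in the 6 CBP-ifKOs (median 250.5), a log2 fold change of -0.27 (SE 0.06, adjusted p = 0.00471). Grin2a, an NMDA receptor subunit, changed by -0.33 and was called in each housing. Of 12 GABA-A receptor subunits 5 were lower, with Gabra5, whose exons overlap Gm9962 on the opposite strand, at -0.56, and of 7 metabotropic glutamate receptors 3 were lower, with Grm3 at -0.43. Without control EE replicate 1 or control SC replicate 1, 1 metabotropic receptor was lower, and with a GC offset 8 GABA-A subunits were.

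Calcium signaling genes moved in both directions. Of 17 genes of calmodulin and its kinases, 11 were lower and 2 higher, counts that were the same under each of the 24 alternatives. Camkk2, a kinase that activates other calmodulin-dependent kinases, was between 152 and 173 CPM in the 6 control mice (median 169) and between 98.3 and 119 CPM in the 6 CBP-ifKOs (median 102), a log2 fold change of -0.67 (SE 0.05, adjusted p = 1.04e-07), with -0.58 in SC and -0.75 in EE. Camkk1 and Camk1g changed by -0.65 and -0.84. The higher genes were Camk2n2, described above, and Camk2d, the delta subunit of CaMKII, which was between 50.1 and 70.1 CPM in the 6 control mice (median 57.7) and between 63.5 and 92.5 CPM in the 6 CBP-ifKOs (median 76.2), a log2 fold change of 0.39 (SE 0.09, adjusted p = 0.00519). The genotypes overlapped for Camk2d, and it was called in neither housing alone. Of 16 RGS genes 7 were lower and 3 higher, with Rgs4 at -0.54 and, among the higher, Rgs11 at 0.28 and Rgs19 at 0.24, and exons of Rgs11 overlap Arhgdig on the opposite strand. Of 22 genes of MAP kinase feedback 11 were lower and 0 higher, with Spred2 at -0.35 and Dusp4, a phosphatase of MAP kinases, at -0.56.

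At the synapse, 13 of 17 postsynaptic scaffold genes were lower and 0 higher, with a median log2 fold change of -0.27. Dlg4, which encodes PSD-95, was between 676 and 737 CPM in the 6 control mice (median 695) and between 526 and 573 CPM in the 6 CBP-ifKOs (median 549), a log2 fold change of -0.35 (SE 0.03, adjusted p = 2.88e-06), with -0.32 in SC and -0.38 in EE. Shank3 and Dlgap4, whose exons overlap Gm15609 and 4930405A21Rik on the opposite strand, changed by -0.38 and -0.33. Of 43 genes of the synaptic vesicle machinery, 20 were lower and 2 higher, 10 of the 20 in 12 mice only, and without control EE replicate 1 the counts were 15 and 1. Cplx2, a complexin that clamps vesicle fusion, was between 1408 and 1551 CPM in the 6 control mice (median 1495) and between 996 and 1148 CPM in the 6 CBP-ifKOs (median 1127), a log2 fold change of -0.46 (SE 0.04, adjusted p = 7.21e-07). Sv2c, a vesicle glycoprotein, changed by -0.87. The higher genes were Rims2, an active-zone protein, at 0.17, and Slc17a6, a vesicular glutamate transporter most abundant outside the hippocampus, at 0.47. The call of Rims2 was lost under 7 of the 24 alternatives and that of Slc17a6 under 2, all of which left out 1 mouse. Of 34 synaptic adhesion genes and organizers 13 were lower and 0 higher, and without CBP-ifKO EE replicate 2 there were 8 lower.

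Among 24 neuropeptides and secreted plasticity factors, 11 were lower and 1 higher. Pdyn, which encodes prodynorphin, was between 13.0 and 17.6 CPM in the 6 control mice (median 15.7) and between 5.01 and 6.37 CPM in the 6 CBP-ifKOs (median 5.57), a log2 fold change of -1.44 (SE 0.09, adjusted p = 4.80e-08), with -1.42 in SC and -1.46 in EE. Penk and Nptx2 changed by -0.88 and -1.02, and exons of Penk overlap A830012C17Rik on the opposite strand. The higher gene was Vip, a peptide of interneurons, at 0.21 and called in 12 mice only. Its call was lost under 7 of the 24 alternatives, which were the GC offset, the thinned counts and the removal of control SC replicate 2, CBP-ifKO SC replicate 1, control EE replicate 2, or CBP-ifKO EE replicate 1 or 3. Of 7 neurotrophin and receptor genes 4 were lower. Ntf3, which encodes neurotrophin 3, was between 4.81 and 6.57 CPM in the 6 control mice (median 5.80) and between 3.52 and 4.64 CPM in the 6 CBP-ifKOs (median 3.93), a log2 fold change of -0.51 (SE 0.09, adjusted p = 9.69e-04) that was called in neither housing alone. Bdnf, whose exons overlap Gm45346 on the opposite strand, changed by -0.68.

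Of 61 axon guidance genes 18 were lower and 3 higher, against 28 and 4 without an expression filter. Efnb3, an ephrin ligand, was between 156 and 175 CPM in the 6 control mice (median 165) and between 113 and 128 CPM in the 6 CBP-ifKOs (median 121), a log2 fold change of -0.46 (SE 0.04, adjusted p = 9.22e-07), whereas Plxna3, a semaphorin receptor, was between 44.3 and 53.8 CPM in the 6 control mice (median 47.9) and between 55.6 and 73.4 CPM in the 6 CBP-ifKOs (median 64.8), a log2 fold change of 0.42 (SE 0.05, adjusted p = 9.38e-06). Of 36 Wnt ligand and receptor genes 12 were lower, with Wnt4 at -0.98, and of 28 genes of the activin and TGF-beta pathway 8 were lower, with the receptor Acvr1 at -0.41. Of 30 matrix proteoglycans and thrombospondins 12 were lower and 0 higher, 7 of them in 12 mice only. Of 17 retinoic acid genes 4 were lower. Aldh1a3, an enzyme that makes retinoic acid, was between 0.695 and 1.71 CPM in the 6 control mice (median 1.29) and between 0.103 and 0.554 CPM in the 6 CBP-ifKOs (median 0.343), with a log2 fold change of -2.06 (SE 0.28, adjusted p = 7.59e-05). Its values of 0.103 and 0.1175 CPM in CBP-ifKO EE replicates 1 and 3 lie near the level of 3 counts, so the size of this change is imprecise. In contrast to these lists, the 21 beta protocadherins, adhesion proteins of clustered and similar genes between which reads may be split, had 3 higher and 0 lower calls and a median of 0.15. Pcdhb7, Pcdhb9 and Pcdhb10 changed by 0.47, 0.35 and 0.33, the call of Pcdhb10 was lost without an expression filter, and without control EE replicate 2 there were 6 higher calls.

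Transcription and chromatin genes changed by small amounts in either direction. Of 30 transcription factors of excitatory neurons 16 were lower and 0 higher, 8 of them in 12 mice only. Mef2d, an activity-regulated factor whose exons overlap 1700113A16Rik on the opposite strand, was between 207 and 235 CPM in the 6 control mice (median 216) and between 146 and 188 CPM in the 6 CBP-ifKOs (median 171), a log2 fold change of -0.39 (SE 0.05, adjusted p = 3.10e-05), and Nfib changed by -0.33. Of 11 histone deacetylase genes 5 were lower and 2 higher, and 3 were lower without control EE replicate 1, CBP-ifKO SC replicate 2 or CBP-ifKO EE replicate 3. Hdac3, a nuclear deacetylase of corepressor complexes, was between 106 and 119 CPM in the 6 control mice (median 115) and between 123 and 136 CPM in the 6 CBP-ifKOs (median 127), a log2 fold change of 0.17 (SE 0.04, adjusted p = 0.00342). Hdac6, a cytoplasmic deacetylase of tubulin, was likewise higher at 0.19, and both were called in 12 mice only. Hdac5, a class II deacetylase, was between 150.3 and 169.6 CPM in the 6 control mice (median 159.6) and between 129 and 145 CPM in the 6 CBP-ifKOs (median 134), a log2 fold change of -0.24 (SE 0.04, adjusted p = 5.88e-04), and its adjusted p-values were 0.0442 in SC and 0.0526 in EE. Hdac11 and Hdac9 changed by -0.21 and -0.27, and exons of Hdac11 overlap Gm14573 and Gm44002 on the opposite strand. Among 9 lysine acetyltransferase genes Kat2b was higher at 0.25 and Kat7 lower at -0.11, besides Crebbp. The call of Kat7 was lost under 14 of the 24 alternatives, and that of Kat2b without control SC replicate 1, control EE replicate 3 or CBP-ifKO EE replicate 3. Of 11 genes of the CREB family and its coactivators 1 was called, Crtc1, a coactivator of CREB, at -0.33, and without control EE replicate 2 there were 3. Of 19 immediate early genes 3 were lower, with Egr3 at -0.41, and the median was -0.05. This median had no stable sign. It ranged from -0.16 to 0.08 over the alternatives, and was 0.08 without control SC replicate 3 and 0.06 without control EE replicate 2. The lower calls of the list ranged from 3 to 8 and the higher calls from 0 to 4, with 8 and 4 in the absence of an expression filter.

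Few genes of the ribosomal protein and respiratory chain lists were called. None of 76 cytosolic ribosomal protein genes was called, at an adjusted p from edgeR, and their median log2 fold change was -0.03. DESeq2 also called 0 of them, 6 had an unadjusted p below 0.05 in edgeR (4 lower), and up to 3 were called lower among the 24 alternatives. Of 61 nuclear-encoded respiratory chain genes 1 was lower, with a median of -0.04 and up to 9 lower calls among the alternatives, the 9 without control EE replicate 2. The 24 genes of the amino acid and ATF4 response had 4 lower and 2 higher calls (2 lower at the least among the alternatives), with the amino acid transporter Slc7a3 at 0.41 and Sesn2 at 0.29.

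**Figure D4:**
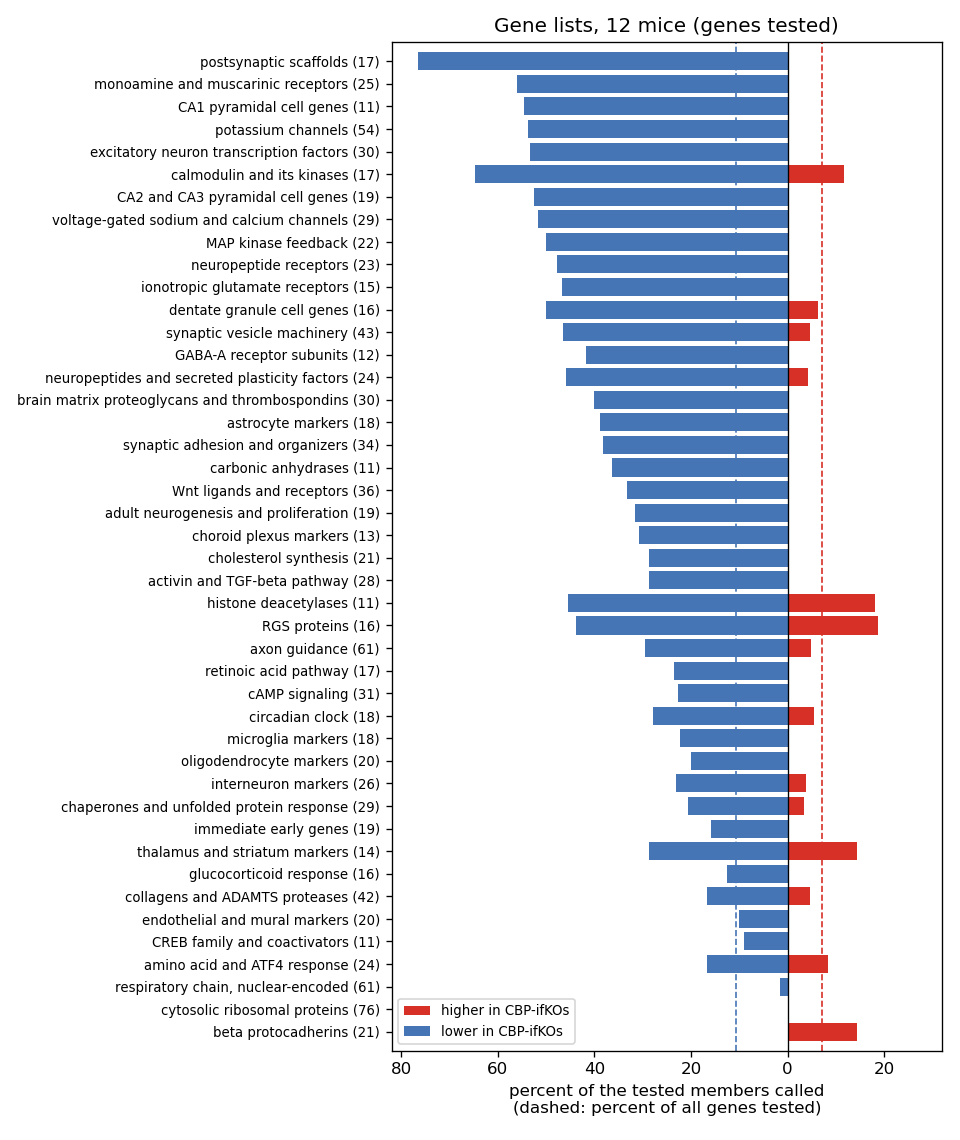
Share of the tested members of each list called lower (blue, to the left) or higher (red, to the right) in CBP-ifKOs over 12 mice, in percent (x axis), for the 44 lists with at least 10 tested genes, whose number stands in brackets. The dashed lines mark the 10.6% lower and 7.15% higher calls among all genes tested, and postsynaptic scaffolds had 13 of 17 genes lower.

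Markers of cell types were measured beside these lists. Pyramidal and granule cell genes, the cells that express the driver, were lower in 6 of 11 for CA1, 10 of 19 for CA2 and CA3, and 8 of 16 for the dentate gyrus. The 1 higher gene among them was Lct, which encodes lactase, on the dentate list, with a log2 fold change of 0.37 (SE 0.09, adjusted p = 0.0118 in edgeR). Wfs1, a CA1 marker, was between 114 and 172 CPM in the 6 control mice (median 147) and between 69.0 and 97.1 CPM in the 6 CBP-ifKOs (median 77.4), a log2 fold change of -0.86 (SE 0.10, adjusted p = 1.53e-05). The summed CPM of the 11 CA1 genes lay between 1728 and 2001 in controls and between 1452 and 1540 in CBP-ifKOs. Markers of cells in which the driver is not expected, interneurons among them, were measured in the same way. Interneuron markers had 6 lower and 1 higher calls of 26, and their sum lay between 2504 and 2632 CPM in controls and between 2287 and 2418 in CBP-ifKOs. Astrocyte markers were lower in 7 of 18, all in 12 mice only, with Sox9 at -0.27 and a sum between 6910 and 7821 CPM in controls and between 6382 and 6937 in CBP-ifKOs. Microglia markers were lower in 4 of 18, all in 12 mice only, with Cx3cr1, whose exons overlap Gm33858 on the opposite strand, at -0.17 and a sum between 583 and 659 against 566 and 622 CPM. Without control EE replicate 1, 4 astrocyte and 1 microglia markers were lower, and without CBP-ifKO SC replicate 3 these counts were 2 and 1. Over all alternatives 1 to 6 microglia markers were lower. Oligodendrocyte markers were lower in 4 of 20, with a median of -0.02 that was 0.03 without control EE replicate 1. Endothelial and mural markers were lower in 2 of 20, a share near the 10.6% of all genes, and in 1 without control EE replicate 1. The part of cell composition in the other results was not tested.

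The choroid plexus markers depended on single libraries and settings. Of 13 tested markers 4 were called lower, with a median log2 fold change of -1.68, and without control EE replicate 1 the median was -0.32, with 0 called lower and 1 called higher. The lower calls were 1 with DESeq2, with the CBP-ifKO counts divided by 2, and without CBP-ifKO EE replicate 1, 2 or 3. They were 8 without control EE replicate 2 or 3, and 13 without an expression filter. Ttr, which encodes transthyretin, reached 1129 CPM in that mouse, against 21.1 as the median of the 6 controls. Within SC, which does not hold that mouse, Ttr was between 20.7 and 26.1 CPM in controls and between 6.02 and 7.73 CPM in CBP-ifKOs, and its log2 fold change was -1.70 (SE 0.12, adjusted p = 2.20e-05 in edgeR). The sum of the 13 markers in SC lay between 58.1 and 62.9 CPM in controls and between 42.4 and 48.3 CPM in CBP-ifKOs. Ttr is part of this sum, and its own difference in SC was of similar size. It was the 1 marker called in SC, where the median log2 fold change of the list was -0.35. The sums in EE overlapped, from 42.5 to 1338 CPM in controls and from 43.0 to 74.0 CPM in CBP-ifKOs.

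Small shared rises were spread over a large family. Families were formed after the values were seen, from the letters that begin the symbols of protein-coding genes, which gave 63 families of at least 20 tested genes. The Zfp symbols, which name zinc-finger proteins and include many DNA-binding repressors, made up the largest, with 356 genes tested. Of these 81 were higher (22.8%, against 7.15% of all genes) and 11 lower (3.09%, against 10.6%), with a median log2 fold change of 0.12 over the family, 0.13 in SC and 0.11 in EE. Of the 356 log2 fold changes 284 were above 0. The median level of the family was 17.5 CPM, and of all genes between 7.44 and 25.9 CPM 11.1% were called higher and 8.19% lower. Of the 81 higher genes 62 were called in 12 mice only, and the median log2 fold change of the 81 was 0.23. Without control EE replicate 1, 51 were higher and 8 lower, and over the 24 alternatives the higher calls ranged from 51 to 102, the lower calls from 7 to 15 and the median from 0.10 to 0.14. The median GC content of the longest transcript was 44.6% in the family and 49.4% over all genes tested. With a GC offset in the fit, an alternative chosen after seeing the data, 76 of the family were higher and 13 lower, with a median of 0.10. Zinc-finger genes are similar in sequence, and reads of near-identical copies may have been split or dropped by the authors' mapping filter. The family is a description chosen from these values and carries no test.

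The zinc-finger genes with the smallest p-values, chosen after their values were seen, showed the size of the change. Zfp367 was between 20.2 and 23.8 CPM in the 6 control mice (median 22.5) and between 26.5 and 31.8 CPM in the 6 CBP-ifKOs (median 29.6), a log2 fold change of 0.40 (SE 0.05, adjusted p = 7.61e-05), with 0.33 in SC and 0.48 in EE. The genotypes did not overlap. Zfp383 was between 19.1 and 22.0 CPM in the 6 control mice (median 21.1) and between 25.5 and 29.1 CPM in the 6 CBP-ifKOs (median 26.8), a log2 fold change of 0.37 (SE 0.05, adjusted p = 9.45e-05), with 0.34 in SC and 0.41 in EE. Zfp672 changed by 0.26. Of the families with 0 lower calls, those with the most higher calls were Polr, subunits of the RNA polymerases (7 of 28), Cep, centrosomal proteins (7 of 35), and Rbm, RNA-binding proteins (7 of 35). Families with the largest shares of lower calls were Rgs (8 of 20), Cdh, the cadherins (7 of 20), and Kctd, proteins with a potassium channel tetramerization domain (7 of 21). The Rgs family also had 3 higher calls and the Cdh family 1. The higher Cdh call was lost under many alternatives, among them DESeq2, CBP-ifKO counts divided by 2, and the removal of control EE replicate 1, 2 or 3. Without control EE replicate 1 the Rbm family had 3 higher calls and the Cdh family 4 lower calls, and over the 24 alternatives these counts ranged from 3 to 9 and from 3 to 8, with 3 lower Cdh calls without control EE replicate 3. The higher calls of the Cep family were 4 without control SC replicate 1 or CBP-ifKO SC replicate 1, and 13 without control EE replicate 2.

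**Figure D5:**
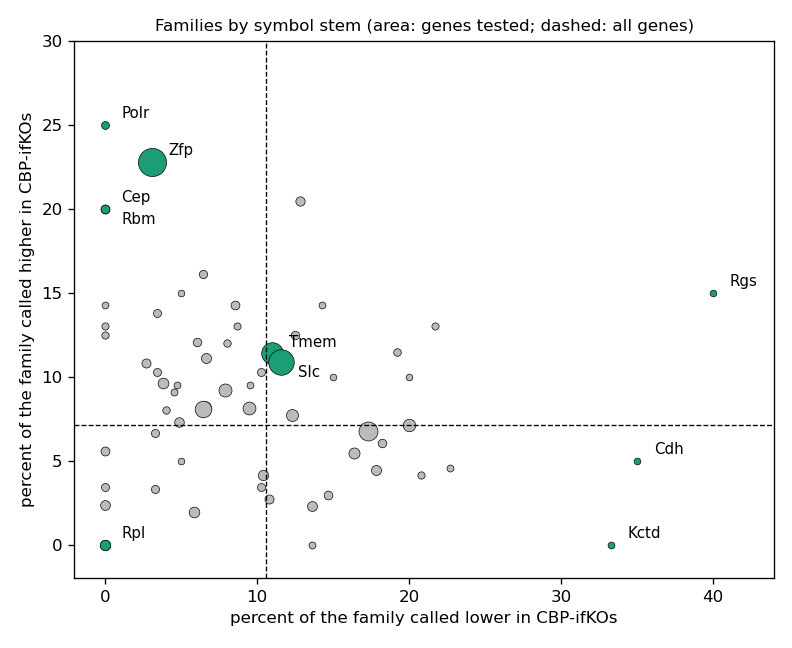
Percent of the tested genes of each of 63 symbol families called lower (x axis) and higher (y axis) in CBP-ifKOs over 12 mice, with circle area proportional to the number of genes and the families named in the text or with many members in green. The dashed lines mark 10.6% and 7.15% of all genes, and Zfp lies at 3.09% lower and 22.8% higher.

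CREB, a partner of CBP, binds the cAMP response element, whose palindrome TGACGTCA contains the shorter element TGACG on both strands. Promoter windows of RefSeq (GRCm38.p6, 250 bases before to 50 after a start site) were searched on both strands for these letters, and 12740 of the 18251 genes tested had a window. Shares were taken over the first window listed for each gene. The palindrome was found in 3.01% of the genes tested with a window, in 3.04% of the higher and in 2.70% of the lower genes. The shorter element was found in 29.6% of the genes tested, in 33.0% of the higher and in 23.0% of the lower genes, and in 21.0% of all 27025 genes with a window. Among genes called in 12 mice only the shares were 35.1% of the higher and 22.0% of the lower. The matches are descriptions of these letters and not of binding.

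Of the 8 higher and 8 lower genes with the smallest p-values whose genotypes did not overlap, 7 and 6 had windows, and none of these held the palindrome. Counting any window of a gene, the shorter element occurred in 5 of 7 higher genes and in 0 of 6 lower genes, against 32.8% of all genes tested with a window. The higher genes Cast, Fam229b and Tfr2 had 4, 3 and 3 windows, Esr1 and Cchcr1 had 2 each, and Shd and Camk2n2 had 1 each. Of the lower genes Kcnip3 had 3, and Thbs3, Tesc, C1ql2, Car12 and Rin1 had 1 each. Counting any window therefore searched more sequence in the higher genes. The 250 bases before the start site of Camk2n2 are printed because it is a higher gene of the calmodulin group with a single window and the element in it, a choice made after the values were seen. They lie on GRCm38.p6 at chr16:20621279-20621528 on the minus strand and are written 5′ to 3′, with the element, here on the opposite strand, in capitals.
Camk2n2: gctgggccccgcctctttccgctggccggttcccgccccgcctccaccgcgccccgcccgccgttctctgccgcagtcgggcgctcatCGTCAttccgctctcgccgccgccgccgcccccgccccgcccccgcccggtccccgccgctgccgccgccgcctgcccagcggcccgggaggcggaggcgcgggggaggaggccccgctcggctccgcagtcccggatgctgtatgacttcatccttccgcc
The element begins 162 bases before the start site. The level of Camk2n2 was higher in each of the 6 CBP-ifKOs than in each of the 6 controls, as given above.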

How the data were processed

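Hippocampal RNA of 12 mice was sequenced as 50 bp single-end reads, giving 24 deposited samples (2 runs per mouse). As deposited, the values are unnormalized read counts for each gene. The authors trimmed reads with trim_galore 0.6.4, aligned them with STAR 2.6.1 to GRCm38, kept alignments of sufficient mapping quality and counted them on exons with Rsubread, after merging runs. The strand setting is not given in the sources used here. The gene length column was used for an offset only. Positions, gene types and overlaps come from GENCODE, and 55230 of 55471 genes were matched.

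Tests used edgeR 4.0.16 (R 4.3.3) with the following steps (expression filter by group, TMM, quasi-likelihood F test, Benjamini-Hochberg adjustment, threshold 0.05). Genotype and housing were fitted over 12 mice, genotype alone within each housing, and the interaction over 12 mice. An SE is the fold change over the root of its F statistic. DESeq2 1.42.0 was an alternative, and the procedure was tested on simulated data. Genes were named by a rule. It took the targeted and driver genes, the 8 genes per direction with the smallest p and no overlap of genotypes, the 10 per direction with the smallest p and the 3 with the smallest change among genes below 0.5 called in 12 mice only, and up to 3 called genes per direction in each of 48 lists. Clone-type names and pseudogenes were passed over in the first steps, and 1 gene that the rule names is not reported here. The comparison, lists and rule were chosen with earlier results of these data known. Replicate numbers were not used as pairs, since not every same-numbered pair correlated above 0.1 and the labels name no shared litter. After removal of group means, same-numbered controls and CBP-ifKOs correlated across genes with means of 0.043 in SC (lowest -0.047) and 0.091 in EE (lowest 0.034), against -0.022 and -0.045 for different numbers, and SC and EE controls with 0.176 against -0.088.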

Additional observations from a re-analysis of the deposited data

How the results depend on the processing

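Direction was stable for most results, and the call was for most named genes, many of which were chosen by a small p. Of the 184 named genes called in 12 mice, 156 were called under every alternative run for them, and no named gene that was called changed sign. The 12-mouse count stayed within 1.5 times of 3238 under all 24 alternatives, from 2616 to 3786, and at least 78.3% of the 3238 genes were shared, with no gene of the opposite sign. Calls of the 2017 genes called in 12 mice only were less stable. When 1 mouse was left out, between 67.0% (without CBP-ifKO SC replicate 3) and 85.3% (without control EE replicate 2) of these were still called. DESeq2 called 3623 genes, of which 3148 were shared with the 3238. The genes called in 12 mice only numbered 1916 with DESeq2, 1963 with CBP-ifKO counts divided by 2, 1752 after these were also thinned to the smallest library, and 1391 without an expression filter. Leaving out each mouse in turn gave 399 to 1908 calls in SC, 285 to 1016 in EE, 969 to 1509 higher and 1638 to 2040 lower genes in 12 mice. The EE count rose to 1296 with DESeq2 and to 1293 when the contrast was taken from the 12-mouse fit. Without an expression filter SC gave 1512 calls, EE 1677 and the interaction 110, and the cause was not tested. The replicate block gave 3484 calls in 12 mice (1418 higher, 2066 lower), and 3200 with blocks within housing. It moved none of the counts named here by over 1.5 times. The replicate numbers are not known to mark shared animals, litters or days. The GC offset, chosen after seeing the data, gave 3590 calls. The interaction rests on 3 mice per group, which limits its precision.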

Other observations

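Stress, clock and metabolic genes, which the report does not describe, held further small changes, tested as before with edgeR over 12 mice. Of 29 chaperone and unfolded protein response genes 6 were lower and 1 higher. The higher call, Dnajb5, was lost under 7 of the 24 alternatives, each of which left out 1 mouse. Hspa1b, an inducible chaperone of the Hsp70 family, was between 4.83 and 8.24 CPM in the 6 control mice (median 6.50) and between 2.29 and 4.08 CPM in the 6 CBP-ifKOs (median 3.23), a log2 fold change of -1.01 (SE 0.13, adjusted p = 7.45e-05). Hsp90ab1, an abundant constitutive chaperone called in 12 mice only, changed by -0.14. Of 18 circadian clock genes 5 were lower and 1 higher, against 9 and 1 without an expression filter. Arntl, which encodes the clock activator BMAL1, was between 43.7 and 50.3 CPM in the 6 control mice (median 48.5) and between 31.3 and 40.2 CPM in the 6 CBP-ifKOs (median 36.8), a log2 fold change of -0.41 (SE 0.05, adjusted p = 7.46e-05), and its exons overlap Gm45355 on the opposite strand. Cry2 and Nr1d1, repressors of the clock, changed by -0.25 and -0.30, and Rora, an activator, by 0.24, and exons of these 3 genes overlap D930015M05Rik, Thra and Gm15511 on the opposite strand. Of 21 cholesterol synthesis genes 6 were lower, 5 of them in 12 mice only, with a median over the list of -0.02. Of 16 glucocorticoid response genes 2 were lower (12.5%, near the 10.6% of all genes), with 1 to 5 lower and 0 to 3 higher over the alternatives.

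Signaling and growth lists gave the following. Of 31 genes of cAMP signaling 7 were lower (13 without an expression filter), of 11 carbonic anhydrases 4, of 42 collagens and ADAMTS proteases 7, with 2 higher (4 to 11 lower and 2 to 5 higher over the alternatives, and 4 lower without control EE replicate 1), and of 19 genes of adult neurogenesis and proliferation 6, with a median of -0.25. Of 14 thalamus and striatum markers 4 were lower and 2 higher, and their sum lay between 197 and 221 CPM in controls and between 188 and 195 CPM in CBP-ifKOs.

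The share of called genes varied with gene properties, and the directions varied differently. When genes were ranked by mean CPM and cut into 5 groups of equal size, lower calls made up 2.85% of the least abundant group and 23.9% of the most abundant, while higher calls made up 1.59% and 6.25% and were most frequent, at 12.4%, in the group between 25.9 and 67.3 CPM. Lower calls made up 5.21% of the genes with the shortest genomic span and 18.6% of those with the longest, and higher calls 3.73% and 4.36%. By GC content of the longest transcript, lower calls rose from 6.74% in the group of lowest GC to 15.6% in that of highest GC, and higher calls fell from 8.83% to 5.85%. The part of each property in these shares was not tested. The median span was 37.5 kb for lower and 19.7 kb for higher genes, against 20.0 kb for all genes tested.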
